A study of Mus musculus with 6 samples.

Results

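Penk and Tac1, the genes of 2 neuropeptide precursors, were followed one library at a time in RNA sequencing counts from mouse tissue. They are 2 of 53546 gene features in the files and were taken by name. The data hold 6 libraries from C57BL/6 mice: 3 controls and 3 with spinal cord injury. The labels give no transgene, no drug and no time after the injury. The labels name both spinal cord and intervertebral disc as the tissue, and the series text speaks of retina of 21-day-old mice. Whether each library is a different animal is not stated, and the p-values then measure the spread between these libraries alone, which may be technical. The libraries labelled control 1 and control 2 went against the tissue labels: readable neuronal markers summed to 7.19 and 13.5 CPM (counts per 1000000 of the library total) and kidney tubule genes to 3516 and 1895 CPM, where the other 4 libraries had at least 2165 and at most 8.60 CPM. Whether these 2 libraries hold the labelled tissue, or were exchanged with others, was not tested, and the tests are therefore given with and without them.

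Neuropeptides are made as long precursors that are cut at basic residues inside dense-core vesicles and released from neurons. Proenkephalin, the product of Penk, gives the enkephalins, which act on opioid receptors and damp synaptic transmission. Tac1 encodes protachykinin, the source of substance P and neurokinin A, which act on the tachykinin receptors. In the spinal cord, enkephalin is known from interneurons of the dorsal horn. Substance P is known there from the endings of pain-sensing afferents and from local excitatory neurons.

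Both genes lay wholly on their own exons, which matters here because few features did. Penk spans chr4:4133531-4138819 on the minus strand and Tac1 chr6:7554879-7565834 on the plus strand, the same in the files and in GENCODE M21 on the build GRCm38. All of their exonic bases (100% for each) fell on the gene of the same name, as at least 90% did for 1746 features (3.26%), called name-stable below. An antisense gene, A830012C17Rik, shares 233 bases (14.3%) of the Penk exons. Read pairs in that stretch could not be assigned by counting without strand, and A830012C17Rik itself had between 0 and 5 counts per library. No other feature shared exonic bases with Tac1.

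The coding parts that yield the active peptides are shown because they are what the counts stand for as a product. A search of the translated GENCODE M21 transcripts for Tyr-Gly-Gly-Phe followed by Met or Leu found 7 stretches in the longer coding transcript of Penk. Of these, 6 had the sequence of Met-enkephalin and 1 that of Leu-enkephalin. Capitals mark the peptide codons, and the small letters the 2 codons on either side.
Penk Met-enkephalin, order 1: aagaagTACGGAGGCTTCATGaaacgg
Penk Met-enkephalin, order 2: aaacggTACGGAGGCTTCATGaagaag
Penk Met-enkephalin, order 3: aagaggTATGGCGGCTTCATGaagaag
Penk Met-enkephalin, order 4: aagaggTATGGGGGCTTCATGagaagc
Penk Met-enkephalin, order 5: aagcgcTACGGGGGCTTCATGagaagg
Penk Leu-enkephalin, order 6: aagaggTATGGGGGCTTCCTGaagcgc
Penk Met-enkephalin, order 7: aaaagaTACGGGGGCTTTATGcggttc

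They lay between 4133848 and 4134348 on chromosome 4, none of them split by an intron. Both codons before the peptide encoded Lys or Arg in 7 of 7 stretches, and both codons after it in 5 of 7. In orders 4 and 7 only 1 of the 2 codons after it did. The search therefore does not show that the peptide made there ends at the capitals. The 7 stretches used 6 different codon strings for the peptide. The shorter coding transcript held 3 of them. In Tac1, a search for Phe, any residue, Gly, Leu and Met found substance P (11 codons, 7556732 to 7556764 on chromosome 6) and neurokinin A (10 codons, 7559101 to 7559130), which share that ending.
Tac1 substance P: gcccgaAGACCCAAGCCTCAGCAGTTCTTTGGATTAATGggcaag
Tac1 neurokinin A: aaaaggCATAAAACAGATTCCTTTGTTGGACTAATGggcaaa

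Substance P was found in 3 coding transcripts of Tac1, and neurokinin A in 2 of these 3. The deposited counts sum all exons of a gene, so these transcripts were not told apart.

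Penk was abundant in control 3 and in all 3 injury libraries and scarce in controls 1 and 2. Controls 1, 2 and 3 gave 11, 68 and 1847 counts, and injury 1, 2 and 3 gave 2251, 1965 and 1497. Scaled to counts per 1000000 of the library total (CPM), the controls stood at 2.82, 17.3 and 706 CPM and the injury libraries at 775, 690 and 627 CPM. The groups overlapped, since control 3 lay above injury 2 and injury 3. From lowest to highest the order was control 1, control 2, injury 3, injury 2, control 3 and injury 1. The 95% Poisson intervals overlapped between injury 3 and injury 2 and between injury 2 and control 3, and not between the other neighbours. Controls 1 and 2 themselves differed beyond counting error, at 1.41 to 5.05 CPM against 13.5 to 22.0 CPM.

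Tac1 showed the same split at a lower level. Controls 1, 2 and 3 gave 4, 0 and 221 counts, and injury 1, 2 and 3 gave 216, 233 and 159. The controls stood at 1.03, 0 and 84.5 CPM and the injury libraries at 74.3, 81.8 and 66.6 CPM. Control 3 was the highest of the 6, so the groups again overlapped. A count of 0 in control 2 allows up to 0.765 CPM, within the interval of control 1 (0.280 to 2.63 CPM). The intervals of injury 3, injury 1, injury 2 and control 3, in rising order, each overlapped that of the next.

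**Figure D1:**
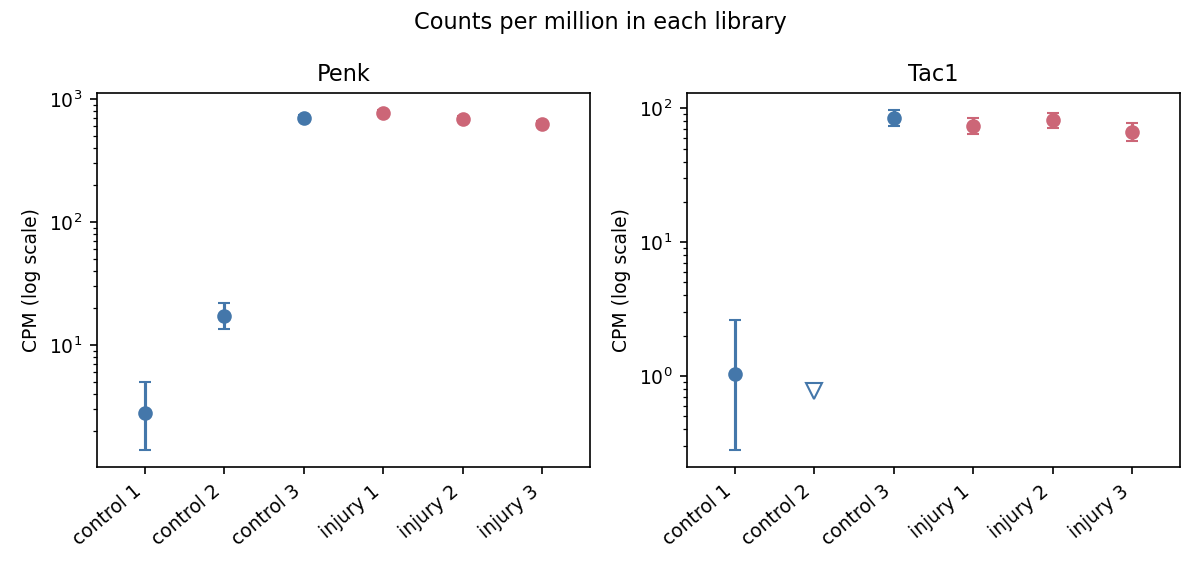
CPM of Penk (left) and Tac1 (right) on log axes in each library, control in blue and injury in red, with exact 95% Poisson intervals as bars where they exceed the point. The open triangle is the limit of 0.765 CPM that 0 counts of Tac1 allow in control 2. Control 3 sits near the injury libraries for both genes, at 706 and 84.5 CPM, and controls 1 and 2 far below.

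Relative to the libraries labelled control 1 and control 2 the gap was wide for both genes. With the tissue of those libraries in doubt, these folds compare libraries and cannot be told apart from a difference in tissue. The mean injury level of Penk, 697 ± 73.9 CPM (SD, n = 3), was 247-fold that of control 1 (138 to 495 from the counting error of the control) and 40.2-fold that of control 2 (31.7 to 51.8). For Tac1 the mean injury level of 74.3 ± 7.59 CPM (SD, n = 3) was 72.3-fold that of control 1 (28.3 to 266) and at least 97.1-fold higher than in control 2, taking 3 counts in that library as the floor. Against control 3 the ratios were 0.987 (0.943 to 1.03) for Penk and 0.879 (0.770 to 1.01) for Tac1. The coefficient of variation over the injury libraries was 10.6% for Penk and 10.2% for Tac1, against 166% and 170.1% over the controls. As bulk RNA, these levels do not tell fewer cells of a type from less RNA per cell.

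The comparison of injury with control asks whether the precursors changed with spinal cord injury, and with all 6 libraries neither passed. The control means were 242 ± 402 CPM for Penk and 28.5 ± 48.5 CPM for Tac1 (SD, n = 3 each). The log2 fold change was 1.62 (SE 1.68) for Penk and 1.48 (SE 1.77) for Tac1, with edgeR adjusted p = 0.513 and 0.568. Of 12646 tested features 0 were called in edgeR's quasi-likelihood test (0.0%), with 3241 at an unadjusted p under 0.05. limma-voom also called 0, with estimates of 4.70 (95% interval 0.46 to 8.93, adjusted p = 0.159) for Penk and 6.33 (2.51 to 10.2, adjusted p = 0.159) for Tac1. DESeq2 called 1225 (3.5%), 0.0172% higher and 3.48% lower, and gave no adjusted p for either gene. limma-voom with sample quality weights, which lets single libraries count for less, called both genes higher (5.90 and 7.50, adjusted p = 1.69e-04 and 9.15e-04) among 55.7% of all tested features, 26.7% higher and 29.0% lower. Scaling by total counts alone moved the median log2 fold change of all tested features from -0.075 to -0.23, with Penk at 1.53 and Tac1 at 1.39.

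The outcome turned on control 3. Without it, Penk was higher in the injury libraries by 6.74 (SE 0.67) and Tac1 by 7.52 (SE 0.77) on the log2 scale, with edgeR adjusted p = 4.56e-04 and 4.93e-04. Such a call was common in that fit, where 66.8% of 15320 tested features were called, 30.2% higher and 36.6% lower. Of the 512 name-stable ones 53.1% were called higher and 19.1% lower. Without controls 1 and 2, control 3 alone faced the injury libraries and was assumed to vary like them. Then Penk differed by 0.10 (95% interval -0.23 to 0.43) and Tac1 by -0.064 (-0.43 to 0.30), with edgeR adjusted p = 0.728 and 0.848. That fit called 6.78% of 13857 features, 1.05% higher and 5.72% lower. The interval leaves room for a change of either gene within those bounds. Without control 1, control 2 or any injury library, neither gene passed.

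**Figure D2:**
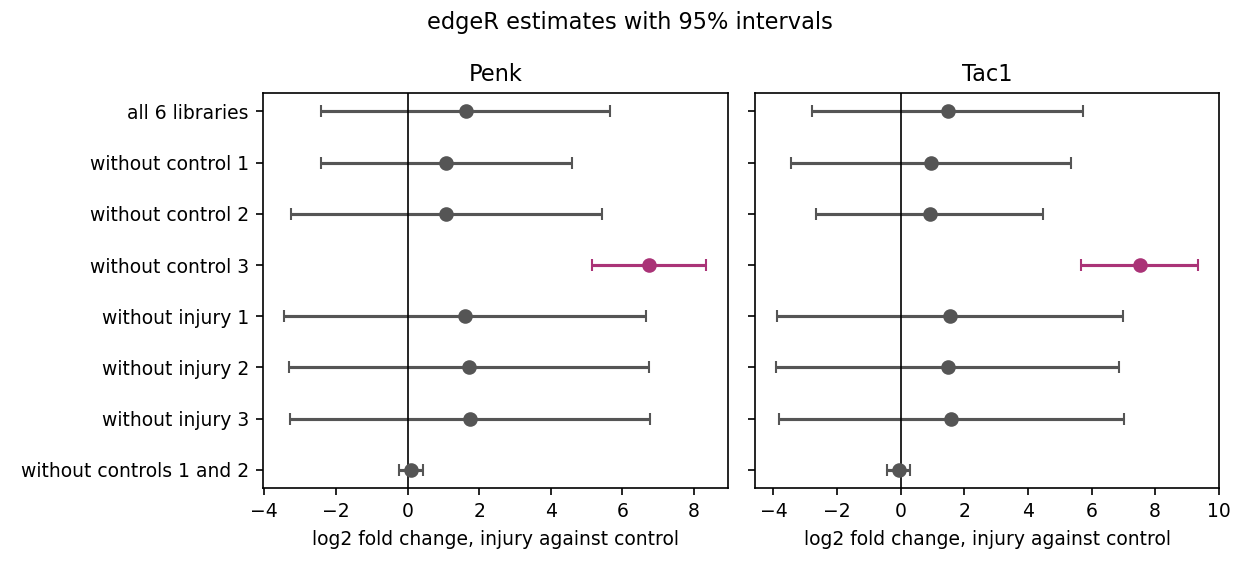
Log2 fold change of injury against control from edgeR for Penk (left) and Tac1 (right), with 95% intervals, in the fit of all 6 libraries and with libraries left out. Purple marks an adjusted p under 0.05, reached without control 3 (6.74 and 7.52). With controls 1 and 2 left out the estimates were 0.10 and -0.064.

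Other features of controls 1 and 2 moved with the precursors. Neuronal markers could be read for 6 of 15 genes, summing features that lie on a gene's exons, and totalled 7.19 and 13.5 CPM for controls 1 and 2, as against 2241 for control 3 and 2165 to 2401 for the injury libraries. The glutamate transporter Slc17a6 (2.82% of exons covered) and the AMPA receptor subunit Gria2 (3.62%) had 0 counts in both of these controls. Gad1 (6.2%) supplied most of the sums of controls 1 and 2, at 6.93 and 12.7 CPM, and had 18.3 to 27.1 CPM elsewhere. Frrs1l (1120 to 1328 CPM) and Scn1a (789 to 853 CPM) supplied most of the sums of control 3 and the injury libraries. Slc17a7 stood at 0.419 CPM in injury 3 and at 7.73 to 10.3 CPM in control 3, injury 1 and injury 2. Of 16 genes that mark position along the cord and its motor neurons, 4 were readable, and 3 of them (Hoxb8, Hoxc10 and Chat) were lower in both of these controls than in any other library. Hoxb8 stood at 4.62 and 18.9 CPM for controls 1 and 2 and ranged from 122 to 157 CPM over the remaining 4. Chat, the enzyme of acetylcholine synthesis, had 0 and 0.765 CPM in those controls and 40.9 to 61.6 CPM elsewhere. Hoxc6 did not follow, with 9.75 CPM in control 1, its highest level of 111 CPM in control 2 and 29.8 to 50.6 CPM in the others. Of 13 genes that mark forebrain position, 3 were readable. Neurod2 (63.6% covered) had the same split, with 0 counts in controls 1 and 2 and 13.8 to 20.3 CPM elsewhere. Dlx5 and Dlx6 were at 0.419 CPM or below in every library. Kidney tubule genes, readable for 4 of 10, totalled 3516 and 1895 CPM for controls 1 and 2, as against 8.03 for control 3 and 2.93 to 8.60 for the injury libraries. The tubule transporters Slc7a13 and Slc34a1 had 0 counts in control 3 and every injury library. Disc and cartilage genes, readable for 4 of 11, totalled 3.08 and 15.3 CPM for controls 1 and 2 and 43.2 to 68.5 CPM in the others. Krt19 (8.41% covered) was at 0 throughout. Col11a2 supplied most of the total in the others, at 39.0 to 59.5 CPM, where Acan had 2.10 to 11.5 CPM. Chad (32.6% covered) was highest in control 2, at 11.2 CPM, with 2.05 CPM in control 1 and 0.688 to 2.10 CPM elsewhere. Retinal genes, readable for 5 of 10, summed to between 3.34 and 23.7 CPM in all 6, but Rlbp1 had 0 counts in controls 1 and 2 and 13.3 to 20.6 CPM elsewhere, and Opn1sw was highest in control 2, at 8.67 CPM against 0.765 to 1.54 CPM. Oligodendrocyte genes, readable for 5 of 9, totalled 170 and 506 CPM for controls 1 and 2 and 3679 to 4182 CPM elsewhere. The 2 readable astrocyte genes of 7 went opposite ways: Aldh1l1 had 181 and 42.1 CPM for controls 1 and 2 and 2.06 to 6.71 CPM elsewhere, and Slc1a3 had 3.08 and 8.41 CPM against 28.8 to 40.9 CPM. Of 8 microglia and macrophage genes 2 were readable, of which Mrc1 was highest in control 2 (92.8 CPM) and Aif1 in injury 1 (31.0 CPM), next to 29.6 CPM in control 2. Besides Tac1 itself, the sensory ganglion channels Scn10a (2.07% covered) and Trpv1 (7.42% covered) were at 0.351 CPM or below in every library. Blood genes, readable for 3 of 6, did not split in this way. Hbb-bs (66.1% covered) had 17.2, 37.7 and 347 CPM across controls 1 to 3 and 394, 5.27 and 83.8 CPM across injury 1 to 3. The part of all these differences in the Penk and Tac1 values was not tested.

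Depth also differed. Controls 1 and 2 held 3896310 and 3921627 counts, and the other 4 libraries 2385703 to 2905828. The deposited FPKM values imply larger totals, 15181232 and 15379158 for controls 1 and 2 and 5691579 to 8443836 in the others, so that 25.5% to 25.7% of that total was counted on genes for controls 1 and 2 and 34.4% to 41.9% elsewhere. On the deposited FPKM scale Penk had 0.443, 2.71 and 165 in controls 1 to 3 and 163, 148 and 161 in injury 1 to 3. Tac1 had 0.0775, 0 and 9.51 in the controls and 7.53, 8.45 and 8.22 in the injury libraries. The split between controls 1 and 2 and the other libraries thus held on both scales, while Penk was highest in injury 1 by CPM and in control 3 by FPKM.

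Penk stood well above Tac1 wherever both were abundant. Per kilobase of the exon lengths in the files (1634 bases for Penk, 3399 for Tac1), Penk had 432 CPM per kb in control 3 and 384 to 474 after injury, and Tac1 had 24.9 and 19.6 to 24.1 CPM per kb. By this measure Penk ranked 4 among 1746 name-stable features in control 3 and 3, 5 and 6 in injury 1, 2 and 3, and Tac1 between 213 and 242. In controls 1 and 2 Penk ranked 475 and 343, and Tac1 617 in control 1. Of the 1746 features, 698 had any count in control 1, 792 in control 2 and 697 to 737 in the other libraries. The ratio of Penk to Tac1 per kilobase was 17.4 in control 3 (95% interval 15.1 to 19.99) and 21.7, 17.5 and 19.6 in injury 1, 2 and 3. The file length of Tac1 includes a noncoding transcript. With the longest coding transcripts (1449 and 1230 bases) the ratio was 7.09 in control 3 and 8.85, 7.16 and 7.99 in injury 1, 2 and 3, so its size depends on the length taken.

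The balance between the precursors was similar in these 4 libraries. Penk made up 89.3% of the counts of both genes in control 3 (95% Wilson interval 87.9% to 90.6%), 91.2% in injury 1 (90.1% to 92.3%), 89.4% in injury 2 (88.0% to 90.6%) and 90.4% in injury 3 (88.9% to 91.7%). The intervals of all 4 libraries overlapped, those of control 3 and injury 1 only between 90.1% and 90.6%. Overlap is not a test of equal shares, and a difference was not tested. In control 1, with 11 counts of Penk and 4 of Tac1, the share was 73.3% (48.0% to 89.1%). In control 2 all 68 counts were of Penk (94.7% to 100%), so the balance differed between controls 1 and 2 beyond counting error.

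Other genes of the 2 pathways and of related lists could be read in part. The related lists hold other neuropeptide precursors, factors acting on the Penk promoter, and striatal and dorsal horn neuron genes. The counts below are over all of these lists. Of 138 listed genes beside Penk and Tac1, 41 had features on their exons, which covered between 1.40% and 100% of the gene's exonic bases (median 6.69%). Of 36 tested in this reading with all 6 libraries, 0 were called in either direction (background 0.0% of 5128 genes), with a median log2 fold change of 0.74 against -0.032 over all genes. Without control 3, 20 of 37 were higher and 6 lower, where 28.1% of 5647 genes were called higher and 31.5% lower, and the medians were 1.22 and -0.075. Without controls 1 and 2, 0 of 37 were called (background 0.0% higher and 0.708% lower of 5367), and the medians were 0.13 and 0.038. The tests were edgeR's, adjusted over all genes of each fit. Since 59.6% of all genes were called without control 3, a call in that fit says little of a single list.

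Among the machinery that makes and stores peptides, several genes had the same split as Penk and Tac1. Chga (chromogranin A, a granin of dense-core vesicles, 18.9% of exons covered) had 0 counts for controls 1 and 2, as against 119 CPM for control 3 and 154, 121 and 143 for the injury libraries. Scg3 (secretogranin III, 21.1% covered) likewise had 0 counts for controls 1 and 2, as against 157 CPM for control 3 and 231, 198 and 205 for the injury libraries. Both rose in the fit without control 3 (edgeR adjusted p = 3.19e-04 and 2.64e-04) and did not pass without controls 1 and 2 (0.458 and 0.184). Pcsk2, the prohormone convertase that cuts proenkephalin, was read over 2.23% of its exons and had 0.257 and 0.255 CPM for controls 1 and 2, as against 86.8 for control 3 and 74.4 to 82.2 for the injury libraries. Processing enzymes as a list were readable for 5 of 12, of which 3 rose and 1 fell without control 3, in a fit that called 28.1% of all genes higher and 31.5% lower. The 1 that fell was Pcsk5 (2.64% covered), with 76.5 and 70.1 CPM for controls 1 and 2. It had 8.79 CPM in control 3 and 3.35 to 4.47 CPM in the injury libraries.

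Vesicle genes did not all follow. The granin Chgb (5.77% covered) had 1.28, 7.39 and 7.65 CPM across controls 1 to 3 and 4.82, 3.51 and 3.35 CPM after injury. Its log2 fold change without control 3 was -0.028, and it was not called in that fit. Cadps2, which primes dense-core vesicles for release and is name-stable, had 62.9, 233 and 148 CPM across controls 1 to 3 and 153, 147 and 171 CPM after injury, and was not called in any of the 3 fits. Slc18a2, the vesicular monoamine transporter (13.0% covered), was higher in controls 1 and 2, at 73.9 and 66.3 CPM, than in control 3 (29.8 CPM) or after injury (15.5 to 20.02 CPM). It fell in the fit without control 3 (log2 fold change -2.04, edgeR adjusted p = 0.00268). Of the 8 readable vesicle genes, 5 rose and 1 fell in that fit, where 28.1% of all genes rose and 31.5% fell.

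**Figure D3:**
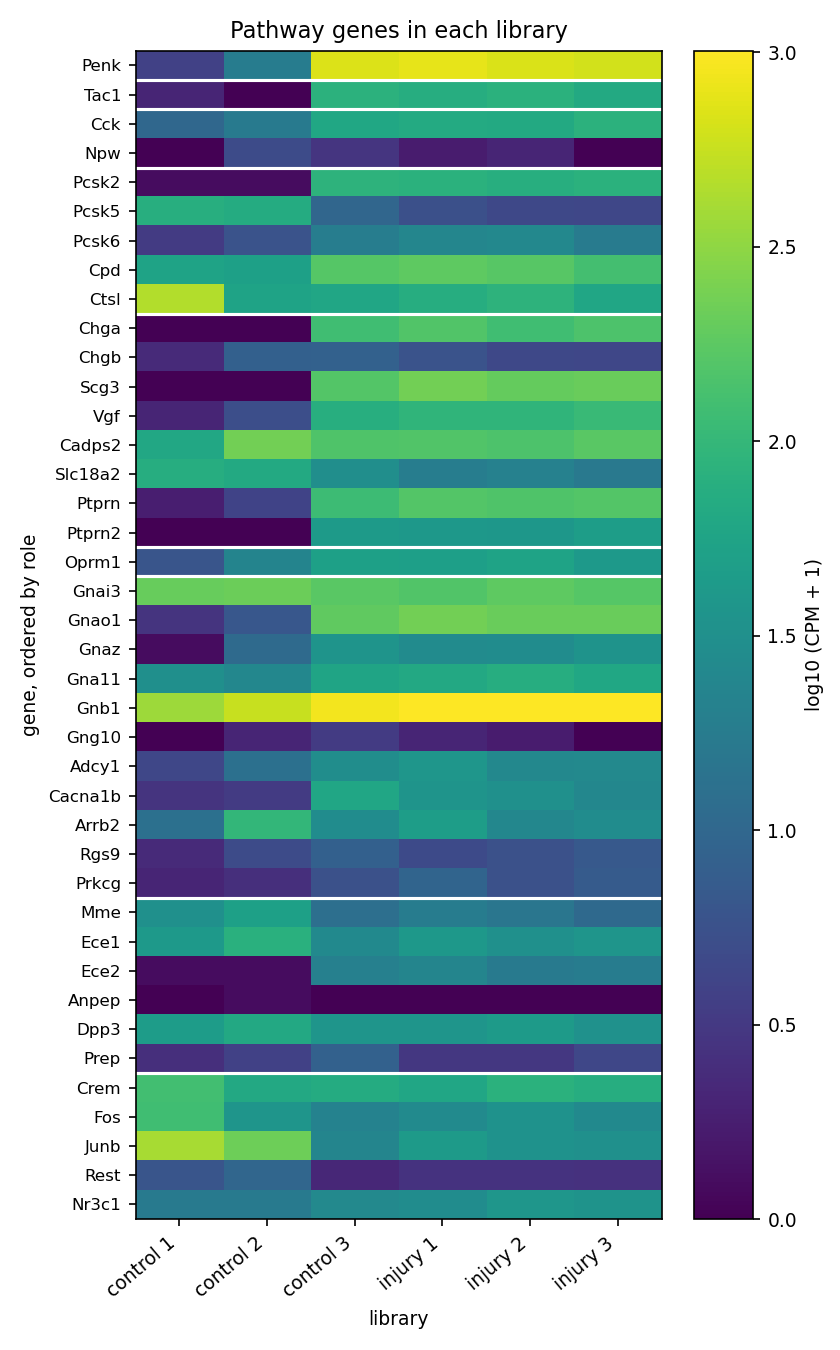
Log10 of CPM plus 1 for the readable genes of the pathway and related lists apart from the striatal list (rows, by role, separated by white lines) in the 6 libraries (columns). Penk, Tac1, Chga, Scg3 and Pcsk2 are darker for controls 1 and 2 than in the other 4, while Cadps2 and Gnai3 have no such split.

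On the receiving side, the mu opioid receptor gene Oprm1 (14.3% of exons covered) had 5.13 and 21.9 CPM for controls 1 and 2, as against 50.5 for control 3 and 49.2, 54.8 and 41.5 for the injury libraries. It rose without control 3 (log2 fold change 1.96, edgeR adjusted p = 0.0157), a smaller value than for Penk in the same fit (6.25). The other opioid receptors and the 3 tachykinin receptors had no readable feature. Of G protein genes, Gnai3 (an inhibitory alpha subunit, 40.5% covered) lay between 151 and 213 CPM in all 6 libraries, and Gnb1 (a beta subunit, 11.4% covered) had 361 and 564 CPM for controls 1 and 2 and 886 to 1008 CPM in the others. Signalling genes were tested for 10 of 24, of which 6 rose and 0 fell without control 3, against 28.1% and 31.5% of all genes. Of other peptide precursors, Cck (cholecystokinin, 18.5% covered) had 8.98 and 15.8 CPM for controls 1 and 2, as against 61.2 for control 3 and 65.0 to 84.3 for the injury libraries.

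Of 14 genes listed as acting on the Penk promoter 5 were readable, of which 1 rose and 2 fell without control 3, a share near the 59.6% of all genes called in that fit. The name-stable Crem, a cAMP-responsive transcription factor, had 124, 63.7 and 68.8 CPM across controls 1 to 3 and 58.5, 81.8 and 73.8 CPM after injury, and was not called in the 3 fits. Junb, an AP-1 subunit (67.1% covered), was higher in controls 1 and 2, at 409 and 219 CPM, than in control 3 (22.6 CPM) or after injury (31.4 to 42.3 CPM). It fell without control 3 (log2 fold change -3.27, edgeR adjusted p = 0.00236). Fos, which forms AP-1 dimers (27.1% covered), had 119 and 36.2 CPM for controls 1 and 2, as against 20.6 for control 3 and 26.2 to 32.7 for the injury libraries, and did not pass. Of the striatal list, Foxp1 (8.62% covered) had 77.5 and 235 CPM for controls 1 and 2 and 41.4 to 56.2 CPM elsewhere. The name-stable Foxp2, a transcription factor of striatal and other neurons, went the other way. It had 0.257 and 8.92 CPM for controls 1 and 2, as against 51.6 for control 3 and 42.8 to 53.0 for the injury libraries. Gng10, a G protein gamma subunit and also name-stable, stayed at 2.29 CPM or below. Peptide degrading enzymes were tested for 4 of 10, of which 1 rose and 1 fell without control 3, and striatal genes for 4 of 17, of which 2 rose and 1 fell. With 28.1% of all genes higher and 31.5% lower in that fit, these counts are not results about the lists. None of the 12 dorsal horn genes was readable.

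The genes nearest to Penk in pattern were sought among 424 other name-stable genes with at least 5 CPM in a library, predicted gene models left out, by the Euclidean distance of centred log2 CPM (prior count 2) over the 6 libraries. The closest 5 were Tmeff1, Grm8 (a metabotropic glutamate receptor), Gria4 (an AMPA receptor subunit), Mmp16 (a membrane-anchored metalloproteinase) and Faxc, at distances of 0.67 to 0.98. Tmeff1, a transmembrane protein, had 1.28 and 16.8 CPM for controls 1 and 2, as against 515 for control 3 and 496, 586 and 536 for the injury libraries. Like Penk, each of the 5 was lower in control 1 than in control 2. They were picked for likeness over these same values, so the shared order is no separate result. For Tac1 the closest were Nkain3, Grin3a (an NMDA receptor subunit), Nxph1 (a neurexin ligand), Kcns2 (a modulatory potassium channel subunit) and Phf24, at 0.77 to 1.43. Nkain3 had 0.770 and 0.255 CPM for controls 1 and 2, as against 95.2 for control 3 and 78.5, 106 and 113 for the injury libraries. Tac1 was number 28 in likeness to Penk, and Penk number 16 in likeness to Tac1, at a distance of 2.68 log2 units.

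**Figure D4:**
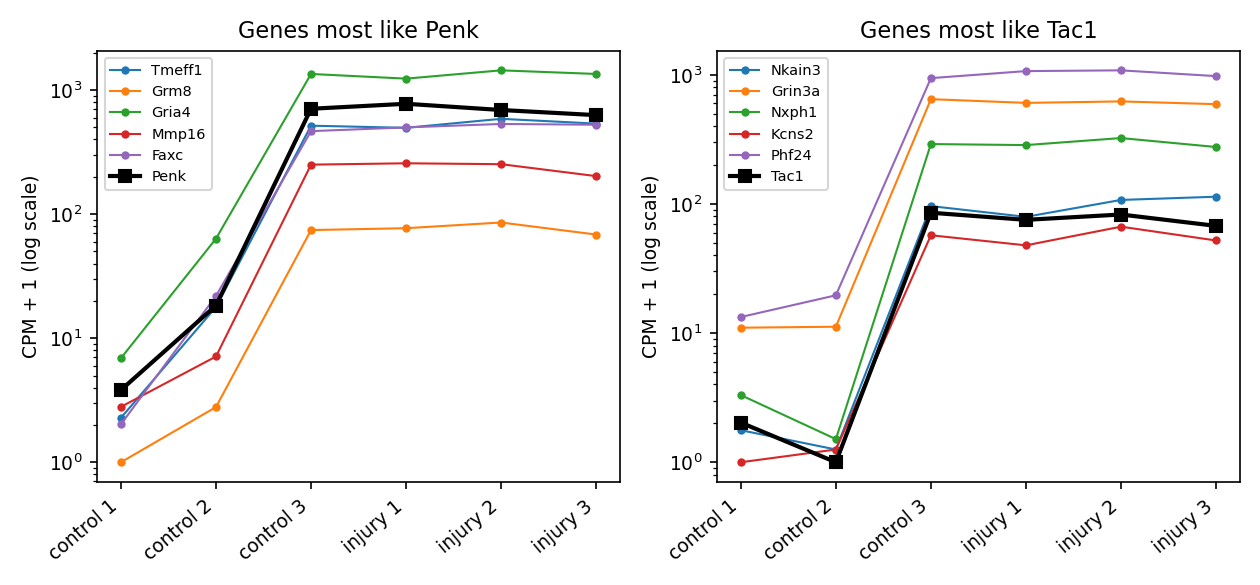
CPM plus 1 on a log axis for Penk (left) and Tac1 (right), in black, and the 5 name-stable genes most like each over the 6 libraries. Lines join values of a gene and carry no order of libraries. The genes around Penk are lower in control 1 than in control 2, whereas Tac1 has 1.03 CPM in control 1 and no count in control 2. The genes were picked for likeness over these values, so a shared order is no separate result.

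Other genes also had a split of at least 10-fold between controls 1 and 2 and the other libraries. Of 550 name-stable features, predicted models included, with at least 5 CPM in a library, 45 (8.18%), Penk and Tac1 among them, had at least a 10-fold gap between the higher of controls 1 and 2 and the lowest of the other 4 libraries. In 24 (4.36%) the gap ran the other way. The gaps of Penk (17.3 against 627 CPM) and Tac1 (1.03 against 66.6 CPM) were wider than 10-fold. The share is therefore not that of features with gaps as wide as theirs.

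Genes beside Penk and Tac1 on the chromosome differed among themselves. The nearest name-stable genes below Penk, Sdr16c6 and Sdr16c5 (short-chain dehydrogenases, 56.0 and 114 kb away) and Rps10-ps3, had at most 1 count in any library. On the other side, Fam110b (1505 kb away) had 16.7 and 52.8 CPM for controls 1 and 2, as against 103 for control 3 and 127, 123 and 118 for the injury libraries, and Ubxn2b had 26.4, 86.4, 178, 215, 210 and 179 CPM in the same order. Cyp7a1, the rate-limiting enzyme of bile acid synthesis, had 0 counts. Around Tac1, Asns (asparagine synthetase, 109 kb away) had 37.2 and 28.0 CPM for controls 1 and 2, as against 424 for control 3 and 425, 498 and 493 for the injury libraries. C1galt1, a glycosyltransferase 279 kb away, had 210, 165 and 146 CPM across controls 1 to 3 and 140, 184 and 167 CPM after injury, with no call in any of the 3 fits. Sdhaf3, an assembly factor of succinate dehydrogenase, had 15.1 and 26.8 CPM for controls 1 and 2 and 97.4 to 144 CPM elsewhere, and Dlx5 and Dlx6os1 had 0 counts.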

How the data were processed

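RNA sequencing counts per gene name were read for 6 libraries, grouped by the sample group field of the labels, with replicate numbers from the titles. Per the file headers, the authors ran featureCounts 2.0.1 for the deposited counts: pairs needed both mates on 1 chromosome, exons were pooled under a gene name, strand was ignored, and reads with several alignments or on several genes were dropped. Bowtie 0.12.2, mm8 and mm9 appear in the submitters' processing notes. Which aligner, build and annotation these counts rest on is not given in the sources used here. The whole-series table repeats the counts (0 cells differ), and its FPKM columns, deposited by the authors, equal the count per kilobase and per 1000000 of a library total larger than the summed counts.

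CPM is the count per 1000000 of the library's summed counts. Tests used edgeR 4.0.16 in R 4.3.3 with TMM scaling, filterByExpr, quasi-likelihood F test over all 6 libraries without covariates, with Benjamini-Hochberg adjustment over all features and calls at 0.05. Standard errors come from the F statistic. Exons in the files were set against GENCODE M21 on GRCm38: a feature is name-stable with at least 90% of its exonic bases on its own gene, and stands for an overlying gene when it shares at least 100 bases with exons and 1 gene holds at least 90% of them. The reading by overlying gene was added after the values were seen. Single-library intervals are exact 95% Poisson intervals, shares carry 95% Wilson intervals, and a count of 0 allows 3 counts. All of these cover counting error alone. The pipeline was tested on simulated counts.

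The genes, lists and markers were chosen with earlier results of these data known. Named beside Penk and Tac1 were name-stable list members, the 5 name-stable genes with the smallest distance to each over the 6 libraries, and the 3 nearest name-stable genes on either side. Predicted gene models were left out. List members read by overlying gene were named after their values were seen, mainly where at least 10% of the gene's exons were covered. Alternatives were RLE, total count scaling, other count filters, removal of the 10 most abundant features, DESeq2 1.42.0, limma-voom (limma 3.58.1), plain or weighted by sample quality, a replicate block, name-stable features only, other CPM totals, and libraries left out. Total counts of 2385703 to 3921627 limit what can be seen of genes at a few CPM.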

Additional observations from a re-analysis of the deposited data

How the results depend on the processing

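With all 6 libraries, the log2 fold changes of Penk and Tac1 stayed positive and short of the threshold under RLE and total count scaling, the other filters, removal of the 10 most abundant features, plain limma-voom, the replicate block, name-stable features only and the regrouping by overlying gene. Plain limma-voom gave larger estimates than edgeR, 4.70 for Penk and 6.33 for Tac1, with intervals above 0 but an adjusted p of 0.159 for both. limma-voom with sample quality weights called both, at 5.90 for Penk and 7.50 for Tac1. DESeq2 gave estimates of 1.85 and 1.69 and no p for either gene. Leaving out 1 library at a time gave 1.08 to 6.74 for Penk and 0.91 to 7.52 for Tac1, with calls in the fit without control 3 alone. Regrouped by overlying gene, the estimates without control 3 were 6.25 and 7.03 and both passed. Without controls 1 and 2 the Tac1 estimate turned to -0.064, and to -0.14 regrouped by overlying gene. With the replicate number as a block the estimates were 5.08 for Penk and 5.03 for Tac1 (edgeR adjusted p = 0.235 and 0.249), 0 features were called as without it, and not every library correlated best with its own number in the other group. Deviations of same-numbered libraries correlated at r of 0.071, -0.15 and 0.059 across tested features, which are not independent replicates, so the numbers were not taken as pairs.

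The number of called features was 0 by edgeR with all 6 libraries, 1225 with DESeq2, 7040 with quality weights and 939 without controls 1 and 2. Leaving out 1 library at a time gave 0 to 10231. By overlying gene it was 3364 without control 3 and 38 without controls 1 and 2. Of the 6 name-stable genes on the pathway and related lists, Penk and Tac1 included, 0 were called by edgeR with all 6 libraries. With quality weights 3 were called (55.7% of all features), and 0 to 3 with 1 library left out (66.8% of all features without control 3). By overlying gene 28 were called without control 3, of Penk, Tac1 and 37 others tested, where 59.6% of all genes were called. The cause of these differences was not tested.

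Other totals moved the CPM values. Without the 10 most abundant features, Penk stood at 831 in control 3 and 890, 782 and 729 CPM across injury 1 to 3, and Tac1 at 99.4 in control 3 and 85.4 CPM in injury 1. Over name-stable features, Penk stood at 34.9, 263 and 7295 across controls 1 to 3 and 7826, 6349 and 6044 per 1000000 across injury 1 to 3. Tac1 stood at 12.7 and 873 across controls 1 and 3 and 751, 753 and 642 across injury 1 to 3. Over the total implied by the deposited FPKM, Penk stood at 0.725, 4.42 and 270.1 across controls 1 to 3 and 267, 242 and 263 per 1000000 across injury 1 to 3. Tac1 stood at 0.263 and 32.3 across controls 1 and 3 and 25.6, 28.7 and 27.9 across injury 1 to 3.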
